A study of Mus musculus with 12 samples.

Results

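The nuclear genes that encode the mitochondrial respiratory chain were examined in the spinal cord of aged and young mice with and without contusion spinal cord injury (SCI). The genes were chosen by symbol and not by their values: Ndufa, Ndufb, Ndufc, Ndufs or Ndufv followed by a digit, names starting with Uqcr or Atp5, Sdha to Sdhd, Cycs, and Cox4 to Cox8 with any suffix. This gave 168 probes annotated to 1 gene each and 82 genes, of 18194 genes on the array, and a gene's level was read from whichever of its probes was brightest on average over the 12 arrays. For 76 of the 82 genes the mean of some group exceeded 50, and these were tested together with all other such genes, 10511 in total. The probes read for Cox4i2, Cox7b2, Cox7c, Cox8b, Ndufa4l2 and Ndufb4 did not reach that level in any group. A dim probe does not show that its gene is not expressed.

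The respiratory chain lies in the inner mitochondrial membrane. Complex I (NADH dehydrogenase) and complex II (succinate dehydrogenase) pass electrons to ubiquinone, complex III (cytochrome bc1) passes them to cytochrome c, and complex IV (cytochrome c oxidase) passes them to oxygen. Complexes I, III and IV pump protons, and complex V (ATP synthase) uses the proton gradient to make ATP. Neurons in the central nervous system draw most of their ATP from this chain, whereas activated macrophages can rely heavily on glycolysis. The 82 genes were 33 of complex I, 4 of complex II, 8 of complex III, 18 of complex IV and 17 of complex V, together with Cycs (cytochrome c) and Cox7a2l, which encodes a factor for assembling supercomplexes. Ndufa4 and Ndufa4l2 carry complex I names but were counted with complex IV, where the NDUFA4 protein is placed.

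There were 4 groups of 3 female C57BL/6 mice: aged injured, young injured, aged intact and young intact. Aged mice were 15 to 18 months old and young mice 2 to 3 months old, and the injured groups were sampled 9 days after an impactor contusion at the Th9 vertebra. Intact mice, labelled normal, had no SCI. The labels name no cell graft in these mice. Each of the 12 arrays held RNA from the Th9 segment of 1 cord, so lesion, surrounding tissue and infiltrating cells were measured together.

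The signal is a linear MAS5 intensity, scaled by the authors so that each array has a trimmed mean of 100. Between 35.05% and 36.73% of the probes on each array were above 50. The summed signal of 12 neuron markers was 1571.7 to 11077.8 in aged injured and 7680.7 to 12017.4 in young injured cords, against 23406.1 to 24078.4 in aged intact and 22791.5 to 23985.4 in young intact cords. The lowest value was that of aged injured replicate 1, which stood apart from the other 2 aged injured cords (7071.2 and 11077.8). The 14 macrophage and microglia markers summed to 46088.6 to 53145.1 in aged injured and 36950 to 47573.4 in young injured cords, against 6735.6 to 7084 in aged intact and 3527 to 3955.7 in young intact cords. All 14 passed the test as higher after SCI at both ages, and 11 of the 12 neuron markers in aged and 7 in young mice passed it as lower. In bulk tissue, fewer cells of a type and less RNA per cell cannot be told apart, and the part of these cell types in the results below was not tested.

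Some of the genes duplicate the same protein, and their promoters are shown first because their expression moved in opposite directions. Atp5g1, Atp5g2 and Atp5g3 encode precursors of the same mature c subunit, which forms the rotating ring of ATP synthase, and this trio was chosen after its values were seen. Cycs is added as a gene with a well-studied binding site for NRF1, a transcription factor of many respiratory genes. Below are the 250 bases before each RefSeq start in GRCm38.p6, 5′ to 3′ on the gene strand, which is the minus strand for all 4. The windows are chr11:96075632-96075881 for Atp5g1, chr15:102671048-102671297 for Atp5g2, chr2:73911327-73911576 for Atp5g3 and chr6:50566570-50566819 for Cycs. Capitals mark matches to the core letters of 3 motifs searched on both strands: NRF1 (GCGCATGC), ETS factors (CCGGAAG) and YY1 (AAGATGGC).
Atp5g1: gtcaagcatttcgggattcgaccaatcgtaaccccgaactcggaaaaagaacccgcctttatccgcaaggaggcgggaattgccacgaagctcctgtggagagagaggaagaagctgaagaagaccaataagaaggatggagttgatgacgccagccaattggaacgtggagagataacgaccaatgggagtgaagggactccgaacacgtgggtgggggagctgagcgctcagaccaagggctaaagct
Atp5g2: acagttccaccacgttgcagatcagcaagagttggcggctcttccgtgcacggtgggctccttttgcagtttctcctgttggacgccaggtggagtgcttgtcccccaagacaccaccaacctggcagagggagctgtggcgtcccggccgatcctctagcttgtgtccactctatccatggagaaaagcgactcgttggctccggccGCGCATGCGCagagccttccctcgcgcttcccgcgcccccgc
Atp5g3: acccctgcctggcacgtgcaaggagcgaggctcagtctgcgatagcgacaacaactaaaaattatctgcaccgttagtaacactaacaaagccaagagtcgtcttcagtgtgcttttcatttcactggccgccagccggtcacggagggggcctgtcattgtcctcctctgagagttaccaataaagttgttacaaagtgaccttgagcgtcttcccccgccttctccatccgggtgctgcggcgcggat
Cycs: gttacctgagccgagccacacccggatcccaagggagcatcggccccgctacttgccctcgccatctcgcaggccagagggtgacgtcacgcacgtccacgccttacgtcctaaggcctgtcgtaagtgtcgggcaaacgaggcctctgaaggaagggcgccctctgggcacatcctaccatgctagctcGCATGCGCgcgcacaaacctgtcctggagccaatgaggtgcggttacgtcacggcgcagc

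The NRF1 letters were found in the Atp5g2 window, where matches on the 2 strands overlap, and in the Cycs window. The windows of Atp5g1 and Atp5g3 held none of the 3 motifs in these letters. Promoter windows were matched for 67 of the 82 genes (72 windows). The NRF1 letters were in 11.1% of these, against 2.25% of all 32817 promoter windows. The ETS letters were in 16.7% of the windows of respiratory genes and 6.9% of all windows, and the YY1 letters in 1.39% and 1.56%. A match is a description of the letters only.

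SCI was accompanied by lower signals of most respiratory chain genes at both ages. In aged mice 59 of 76 genes were lower in injured than in intact cord and 5 were higher at an adjusted p under 0.05, against 39.9% lower and 35.6% higher among all genes tested. In young mice 61 of 76 were lower and 5 higher, against 34.1% lower and 33.9% higher among all genes. The 5 higher genes at each age included Cox6a2 and Cox6b2. These entered the test through injured groups alone and so had to differ, which limits the counts of higher genes. The median log2 fold change over the 76 genes was −0.38 in aged and −0.42 in young mice, against −0.04 and −0.005 over all genes tested. The falls were moderate in size, a median of 23.2% in aged and 25.2% in young mice. Without aged injured replicate 1 the aged counts were 59 lower and 4 higher and the median was −0.38. After quantile normalization the aged median was −0.57, and neither age's counts of lower genes left the range of 1.5 times under any alternative.

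The arrays of injured and intact cord did not overlap in this summary. The median signal of the 76 genes, each gene as a percentage of its young intact mean, was 69.3%, 73.4% and 72.0% in aged injured cords, against 99.0%, 97.8% and 92.0% in aged intact cords. It was 72.9%, 76.4% and 75.2% in young injured cords, against 103.1%, 100.9% and 96.3% in young intact cords. Each of the 6 injured cords lay below each of the 6 intact cords. Gene by gene, the injured and intact arrays did not overlap, with the injured ones lower, for 63 of 76 genes in aged mice (41.6% of all genes tested) and 64 of 76 in young mice (38.7% of all genes). The 59 genes that fell in aged mice all fell in young mice too, and Ndufb1 and Ndufb11 passed the test in young mice but not in aged mice, a difference between the ages that itself did not pass the test. Across the 76 genes the log2 fold changes of the 2 ages, which share no array, had a Spearman correlation of 0.95 as a description; genes are not independent replicates and share their arrays.

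**Figure D1:**
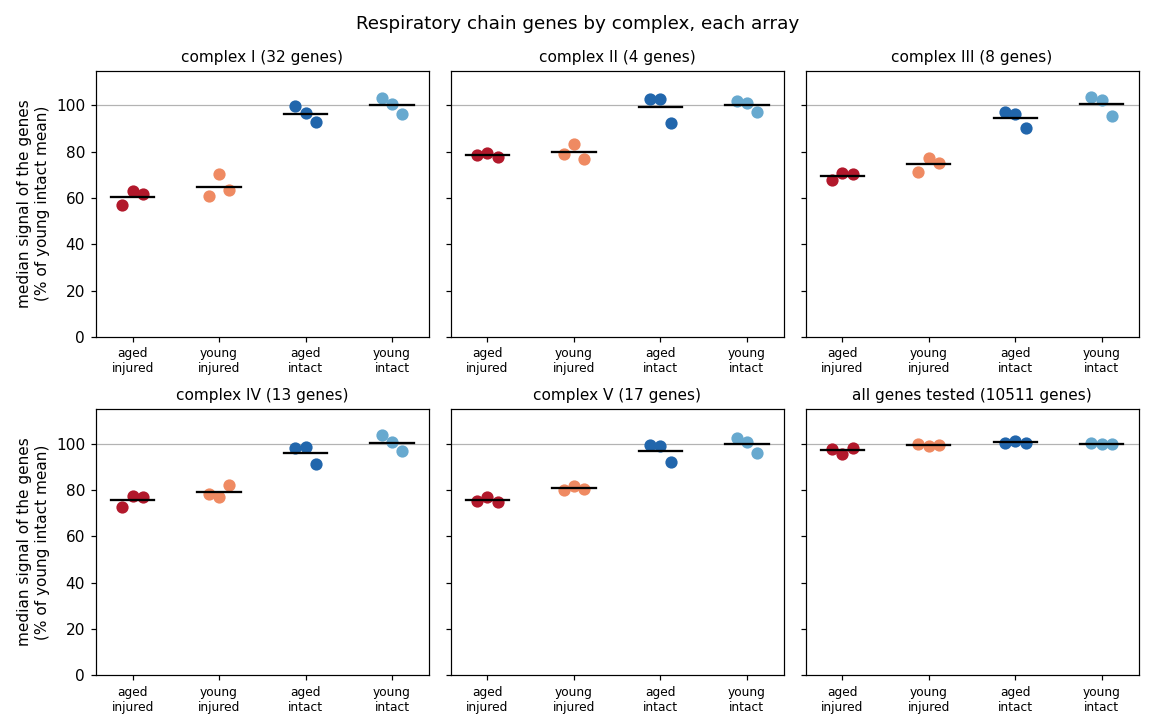
Median signal of the genes of each complex on each of the 12 arrays, as a percentage of the young intact mean of each gene (y axis from 0), by group; points are arrays and bars the mean of 3. In all 5 complexes the injured arrays lie below 100%, and the genes of complex I sit lowest (56.9% to 63.1% in aged injured, 60.7% to 70.5% in young injured), while the median of all genes tested stays between 95.7% and 101.0%.

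Complex I had the lowest medians among the 5 complexes. Its 32 tested genes had a median log2 fold change of −0.67 in aged mice (25 lower, 0 higher) and −0.62 in young mice (27 lower, 1 higher). The medians of complex II were −0.34 in aged and −0.33 in young mice, those of complex III −0.41 and −0.42, those of complex IV −0.34 in both, and those of complex V −0.33 and −0.31. The same order of complex I against the others held without aged injured replicate 1, where the aged median of complex I was −0.62 and those of the other 4 complexes lay between −0.38 and −0.32. No test of the difference between complexes was made. The absolute size of the change also went with brightness. Over the 76 genes its Spearman correlation with mean log2 signal was −0.37 for aged and −0.31 for young mice, as a description. For the change with its sign the correlation was weaker, at 0.17 in aged and 0.12 in young mice. Among the 33 genes with a mean signal of 1000 to 2000, the 18 of complex I had medians of −0.69 in aged and −0.69 in young mice, and the other 15 medians of −0.39 and −0.38. Above 2000 no such gap was seen, with medians of −0.34 and −0.30 for the 8 genes of complex I and −0.34 in both ages for the other 19. Under 1000 the 6 genes of complex I had medians of −0.75 in aged and −0.62 in young mice. The other 10, which include Cox6a2 and Cox6b2, had −0.31 and −0.05.

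Within complex I the 6 tested core subunits, conserved proteins most of which hold the flavin or iron-sulfur clusters, had medians of −0.90 in aged and −0.73 in young mice. All 6 fell at both ages. The 26 accessory subunits had medians of −0.60 in aged (19 lower, 0 higher) and −0.58 in young mice (21 lower, 1 higher). By position, the 14 genes of the peripheral arm, which extends into the matrix, had medians of −0.76 in aged and −0.65 in young mice, and the 18 of the membrane arm −0.57 and −0.58.

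Ndufs1 encodes the largest iron-sulfur subunit of complex I and had the largest fall of the complex in aged mice. Its signals were 394.9, 510.4 and 451.1 in aged injured cords, against 1010.6, 999.8 and 1027.4 in aged intact cords. They were 469.4, 615.4 and 522.9 in young injured cords, against 961.4, 931.8 and 912.1 in young intact cords. All injured cords were well below all intact ones at both ages. The log2 fold change was −1.17 ± 0.11 (SE; adjusted p = 3.6e-06) in aged and −0.81 ± 0.11 (adjusted p = 6.97e-05) in young mice. The fall was −1.08 in aged mice without aged injured replicate 1, the lowest of the aged injured cords.

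Ndufv1 encodes the flavoprotein that accepts electrons from NADH. Its signals were 567.6, 823.8 and 755.2 in aged injured cords, against 1582, 1433 and 1323.3 in aged intact cords, and 772.6, 844.7 and 870.6 in young injured cords, against 1361.1, 1350.6 and 1410 in young intact cords. The groups did not overlap at either age. Ndufv1 fell, with log2 fold changes of −1.03 ± 0.12 (adjusted p = 2.3e-05) in aged and −0.73 ± 0.12 (adjusted p = 0.00036) in young mice. Accessory subunits had falls of similar size. Ndufa5, of the peripheral arm, fell with log2 fold changes of −0.95 ± 0.09 in aged and −0.81 ± 0.09 in young mice. Those of Ndufs5, of the membrane arm, were −0.93 ± 0.09 and −0.85 ± 0.09, and those of Ndufa10, also of the membrane arm, −0.92 ± 0.09 and −0.82 ± 0.09.

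Some complex I genes did not pass the test or went the other way. Ndufa1, Ndufa7, Ndufb7 and Ndufv3 passed the test at neither age, with log2 fold changes of 0.10, 0.02, −0.18 and 0.07 in aged and −0.11, −0.03, −0.20 and −0.12 in young mice. Ndufa2, an accessory subunit of the peripheral arm, was the only gene of complex I called higher. Its signals were 1665.6, 1712.1 and 1851.1 in young injured cords, against 1558.6, 1496.3 and 1628.8 in young intact cords, and the groups were separated by a small gap. The log2 fold change was 0.16 ± 0.06 (adjusted p = 0.033), and the call was lost without young intact replicate 1, young intact replicate 2 or young injured replicate 3. For aged mice the value of Ndufa2 was 0.05 (adjusted p = 0.49). The calls of Ndufb11 (−0.18 in young, adjusted p = 0.012, lost without young intact replicate 2) and of Ndufb1, a dim probe (means of 50.6 in young injured and 68.8 in young intact cord, adjusted p = 0.048), rested on single arrays as well. For Ndufb1, leaving out any 1 of 7 arrays ended the call.

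**Figure D2:**
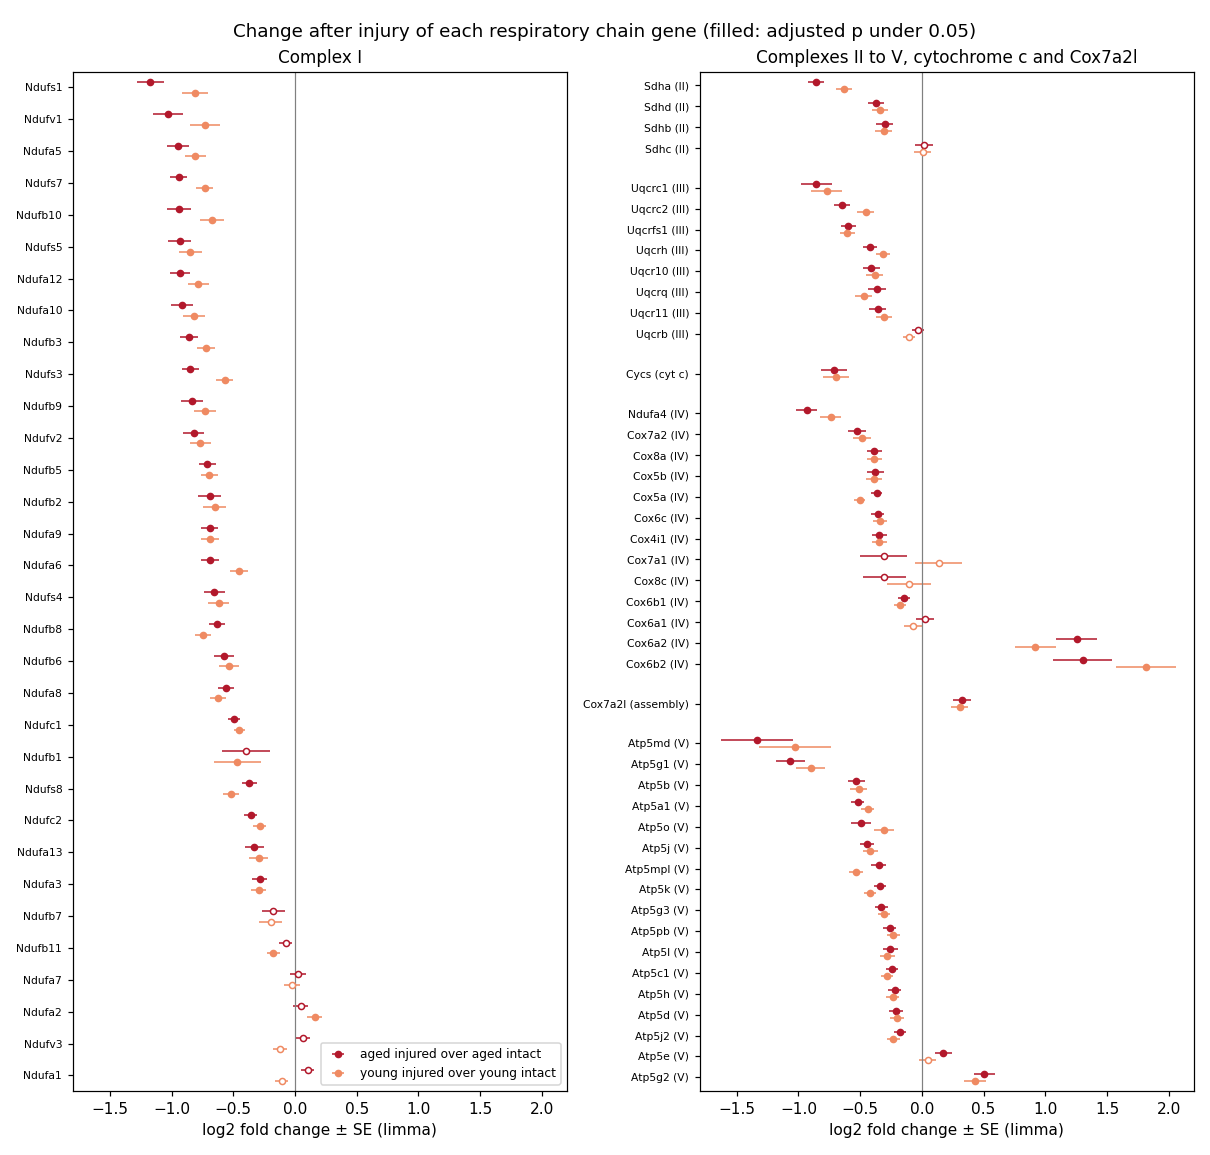
Log2 fold change after injury with its SE (x axis) for each of the 76 tested genes (y axis), complex I on the left and the others on the right, for aged injured over aged intact (dark, upper point of each pair) and young injured over young intact (light); filled points have an adjusted p under 0.05. Most genes lie left of 0 at both ages, and Atp5g2, Cox7a2l, Cox6a2 and Cox6b2 lie to the right of 0 at both.

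Complex II also belongs to the citric acid cycle. Sdha, its flavoprotein, fell by 44.8% in aged and by 35.4% in young mice. Its signals were 917.1, 1069.5 and 1012.9 in aged injured cords, against 1814.2, 1847.3 and 1766.5 in aged intact cords, and 1014.1, 1144.7 and 1102.1 in young injured cords, against 1686.5, 1662.4 and 1691.6 in young intact cords. These are log2 fold changes of −0.86 ± 0.07 (adjusted p = 1.2e-06) and −0.63 ± 0.07 (adjusted p = 1.4e-05). Sdhb, the iron-sulfur subunit, changed by −0.30 ± 0.07 in aged and −0.31 ± 0.07 in young mice, and Sdhd, a membrane anchor, by −0.37 and −0.34, all 4 past the threshold, although the young call of Sdhd was lost with the mean of its probes (adjusted p = 0.052). Sdhc, the other anchor, had log2 fold changes of 0.02 and 0.01 (adjusted p = 0.83 in aged and 0.95 in young mice), so 3 of the 4 genes of this complex passed the test.

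In complex III 7 of 8 genes fell at both ages. Uqcrc1, a core protein facing the matrix, had the largest fall. Its signals were 485.4, 696.5 and 663 in aged injured cords, against 1124.4, 1115.2 and 1057.9 in aged intact cords, and 615.6, 636.8 and 755.2 in young injured cords, against 1204.8, 1063.4 and 1152.6 in young intact cords. The log2 fold changes were −0.86 ± 0.13 (adjusted p = 0.00012) in aged and −0.77 ± 0.13 (adjusted p = 0.00033) in young mice. Uqcrfs1, the Rieske iron-sulfur protein, fell with log2 fold changes of −0.59 ± 0.06 in aged and −0.60 ± 0.06 in young mice. Uqcrb was the exception on the probe used, with log2 fold changes of −0.03 and −0.10 that did not pass the test. Its second probe above 50 had −0.20 in aged and −0.29 in young mice.

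Cycs encodes cytochrome c, the soluble carrier between complexes III and IV. Its signals were 2209.6, 2577.9 and 2248.4 in aged injured cords, against 3996.1, 3789.2 and 3732.7 in aged intact cords, and 2075.9, 2810.6 and 2103.7 in young injured cords, against 3729.2, 3829.2 and 3635.8 in young intact cords. Injured and intact cords were clearly apart at both ages. On the log2 scale the change was −0.71 ± 0.11 (adjusted p = 0.00011) in aged and −0.69 ± 0.11 (adjusted p = 0.0002) in young mice. The 2 other Cycs probes above 50 had larger changes, of −0.96 and −1.17 in aged and −0.88 and −1.02 in young mice.

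In complex IV the ubiquitous subunits fell by smaller amounts. Cox4i1, the regulatory subunit that binds ATP, had signals of 2937.8, 3115.8 and 3104.1 in aged injured cords, against 4013.8, 4062.9 and 3561.5 in aged intact cords. In young mice they were 3154.7, 3107.2 and 3323.6 in injured cords, against 4185.5, 4051.5 and 3933.5 in intact cords. Cox4i1 fell by 21.2% at both ages (adjusted p = 0.00031 in aged, 0.00043 in young mice). Cox5a, another nuclear subunit near the core of the enzyme, changed by −0.37 ± 0.05 in aged and −0.51 ± 0.05 in young mice on the log2 scale. Ndufa4 had the largest fall of the complex, with signals of 1379.3, 1698.7 and 1456.8 in aged injured cords, against 2922.5, 2979.7 and 2718.3 in aged intact cords. In young mice Ndufa4 had 1698.3, 1978.9 and 1766.7 in injured cords, against 3161.8, 3022.7 and 2888.1 in intact cords. This was a log2 fold change of −0.93 ± 0.08 (adjusted p = 3.7e-06) in aged and −0.74 ± 0.08 (adjusted p = 2.7e-05) in young mice.

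Several subunits of complex IV exist as a ubiquitous form and a form of heart and skeletal muscle, testis or lung. Among the ubiquitous forms Cox7a2 (−0.52 in aged, −0.48 in young mice), Cox8a (−0.39 at both ages) and Cox6b1 (−0.14 and −0.18) fell, the aged call of Cox6b1 being lost without aged injured replicate 1, aged intact replicate 1 or aged intact replicate 2. Cox6a1 did not pass the test, with log2 fold changes of 0.03 and −0.07, whereas its second probe above 50 had −0.45 and −0.46. The lung form Cox4i2, the testis form Cox7b2, the muscle form Cox8b and Ndufa4l2 were under 50 in all 4 groups. The testis form Cox8c was near that level throughout (means of 41.1 in aged injured, 42.5 in young injured, 50.8 in aged intact and 44.8 in young intact cord). The muscle form Cox7a1 had means of 73.2 ± 21.8 in aged injured and 94.7 ± 5.8 in young injured cord, against 87.8 ± 4.5 in aged intact and 86.4 ± 8.6 in young intact cord (SD, n = 3), and its groups overlapped.

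The muscle form Cox6a2 and the testis form Cox6b2 were the exceptions in complex IV, at dim signals. Cox6a2 had signals of 58.7, 57.8 and 62.8 in aged injured cords, against 30.5, 20.8 and 24.8 in aged intact cords, and 52, 44.4 and 51.6 in young injured cords, against 26.5, 23.1 and 28.9 in young intact cords. Cox6b2 had 66.7, 66.3 and 66.8 in aged injured cords, against 32.6, 18.7 and 32.3 in aged intact cords, and 63.9, 66.7 and 75.4 in young injured cords, against 14.3, 23.2 and 22.2 in young intact cords. All injured arrays were above all intact ones for both genes. Against the level of 50, Cox6b2 was at least 1.33-fold higher after SCI in aged mice (adjusted p = 0.0005) and at least 1.37-fold higher in young mice (adjusted p = 7.6e-05), and Cox6a2 at least 1.19-fold higher in aged mice (adjusted p = 5.3e-05). The mean of Cox6a2 in young injured cord was 49.3, so no fold is given there, although the gene is counted among those called higher in young mice. Both genes entered the test through their injured groups alone and so had to differ; with a minimum of 100 the genes called higher were 3 at each age. Of 15 skeletal muscle markers, 12 were under 50 in all groups, the others being Acta1, Tnni2 and Pvalb. The summed signal of all 15 was 344 to 386.5 in aged injured and 473 to 694.1 in young injured cords. It was 872.9 to 1357.3 in aged intact and 1112.9 to 1324.3 in young intact cords. Which cells gave this signal was not tested, so the sum is not a measure of muscle content.

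Cox7a2l, counted apart from the complexes, rose at both ages at the level of RNA. Its protein and the supercomplexes were not measured. Its signals were 1778.2, 1486.8 and 1532.3 in aged injured cords, against 1326.4, 1258.7 and 1232.5 in aged intact cords, and 1421.3, 1379.5 and 1489.6 in young injured cords, against 1172.4, 1176.4 and 1124.2 in young intact cords. The groups did not overlap at either age. The log2 fold change was 0.33 ± 0.07 (adjusted p = 0.0015) in aged and 0.30 ± 0.07 (adjusted p = 0.0029) in young mice, and was 0.25 in aged mice without aged injured replicate 1. Its other 2 probes above 50 gave 0.25 and 0.28 in aged and 0.20 and 0.30 in young mice.

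In complex V 15 of 17 genes fell at both ages. Atp5a1 and Atp5b encode the alpha and beta subunits of the catalytic head. Atp5a1 had signals of 1489.9, 1627.9 and 1548.7 in aged injured cords, against 2214.4, 2235 and 2240.6 in aged intact cords, and 1535.1, 1622.7 and 1660.4 in young injured cords, against 2154.4, 2105.5 and 2278 in young intact cords. It fell by 30.3% in aged (adjusted p = 9.2e-06) and by 26.3% in young mice (adjusted p = 4.4e-05). Atp5b had 2010.3, 2179.1 and 2262.2 in aged injured cords, against 3222.9, 3025.3 and 3061.9 in aged intact cords, and fell by 30.8%. In young mice Atp5b had 1979.7, 2252.8 and 2312.1 in injured cords, against 3005.6, 3125.5 and 3175.2 in intact cords, and fell by 29.8% (adjusted p = 4.1e-05 in aged, 7.8e-05 in young mice). For both genes every injured cord was below every intact cord.

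The 3 genes of the c subunit, whose promoters are printed above, diverged. Atp5g1 had signals of 416.7, 543 and 529.7 in aged injured cords, against 1083.1, 1077.1 and 941.3 in aged intact cords, and 525.5, 663.7 and 522.5 in young injured cords, against 1037.4, 1079.2 and 1057 in young intact cords. It fell by 52.2% in aged (log2 fold change −1.07 ± 0.12, adjusted p = 1.5e-05) and by 46.4% in young mice (−0.90 ± 0.12, adjusted p = 7.2e-05). Atp5g2 went the other way. Its signals were 1235.5, 1010.6 and 1175.6 in aged injured cords, against 810.9, 855.2 and 738.3 in aged intact cords, and 1088, 1022.8 and 1083.9 in young injured cords, against 846.9, 789.9 and 739.2 in young intact cords. It rose by 42.1% in aged (log2 fold change 0.51 ± 0.09, adjusted p = 0.00032) and by 34.6% in young mice (0.43 ± 0.09, adjusted p = 0.0013). Atp5g3 had 2798.9, 2857.9 and 2784.1 in aged injured cords, against 3461.5, 3799.6 and 3345.8 in aged intact cords, and 2993.2, 3029 and 3000.2 in young injured cords, against 3820.8, 3734.3 and 3612.4 in young intact cords. Atp5g3 fell by 20.3% in aged (adjusted p = 0.00018) and fell by 19.2% in young mice (adjusted p = 0.00039). Injured and intact arrays did not overlap for any of the 3 genes at either age, and the 3 calls held under all alternatives run at both ages.

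**Figure D3:**
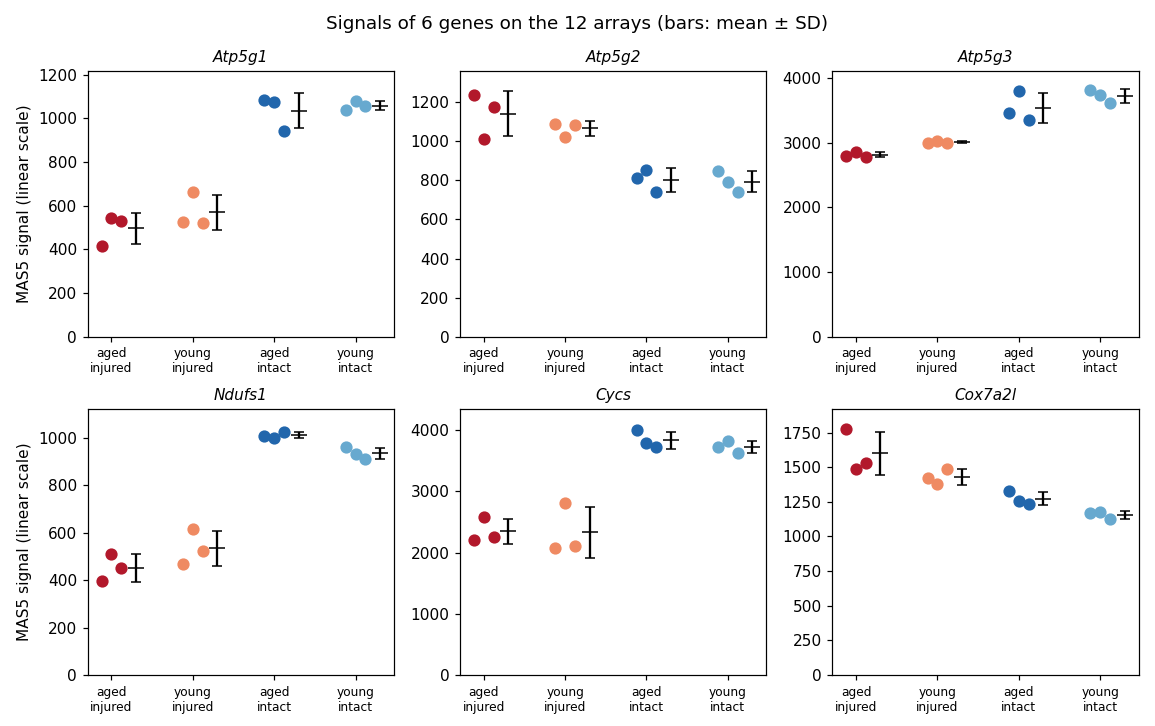
MAS5 signal (linear y axis from 0) of 6 genes on the 12 arrays by group; points are arrays, black bars the mean ± SD of 3. Atp5g1, Atp5g3, Ndufs1 and Cycs are lower in every injured than in every intact cord, and Atp5g2 and Cox7a2l higher.

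Atp5md, a small subunit associated with the dimer form of ATP synthase, had the largest fall of all 76 genes and the widest spread. Its signals were 790, 1999.1 and 1248.9 in aged injured cords, against 3285.7, 3204.7 and 3012.7 in aged intact cords, and 1175.6, 2253.1 and 1586.7 in young injured cords, against 3455, 3383.3 and 3071.3 in young intact cords. The injured cords varied more than 2-fold in aged mice, yet stayed below the intact ones. The log2 fold change was −1.34 ± 0.29 (adjusted p = 0.0016) in aged and −1.03 ± 0.29 (adjusted p = 0.009) in young mice, and the aged call held without aged injured replicate 1 (adjusted p = 0.0016). Atp5e, the epsilon subunit of the central stalk, was called higher in aged mice, with signals of 1465, 1282.1 and 1346.8 in injured cords, against 1221.1, 1248.6 and 1160 in intact cords. Its log2 fold change was 0.17 ± 0.07 (adjusted p = 0.042) in aged and 0.05 (adjusted p = 0.56) in young mice. The aged call was lost without aged injured replicate 1 (0.12, adjusted p = 0.14), and under 12 other alternatives.

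A second or further probe above 50 was available for 41 of the 76 genes, 61 probes in all. In aged mice 60 of the 61 moved in the same direction as the probe used, the exception being Cox6a1. In young mice 57 did, and the 4 exceptions were probes of Ndufa7.

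Age differences in injured cord were small beside the injury differences. Between aged injured and young injured mice 2 of the 76 genes passed the test as lower (4.58% of all genes tested) and 0 as higher (4.41% of all genes); 15 had an unadjusted p under 0.05, or 19.7%, against 30.1% of all genes. The median log2 fold change was −0.08, against −0.04 over all genes tested, and 63 of the 76 values (82.9%) were negative, against 56.1% of those of all genes. The arrays did not overlap, with aged injured cords lower, for 14 of 76 genes, against 14.1% of all genes tested. The 2 called genes, Ndufs3 and Ndufs7, are core subunits of the peripheral arm of complex I, and Ndufs7 carries the last iron-sulfur cluster before ubiquinone. Ndufs3 had signals of 550.9, 632 and 627.6 in aged injured and 710.4, 759.4 and 710.7 in young injured cords, a log2 fold change of −0.27 ± 0.07 (adjusted p = 0.034). Ndufs7 had 759.9, 846.6 and 762.2 in aged injured and 886.9, 982.4 and 988.6 in young injured cords, a log2 fold change of −0.27 ± 0.07 (adjusted p = 0.036). For each gene all 3 aged injured cords lay below all 3 young injured cords.

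Markers of some other cell types differed in the same comparison. Of 10 astrocyte markers 5 passed the test as lower and 0 as higher (median −0.54), and their summed signal was 12293.9 to 20029.5 in aged injured and 23009.1 to 26108.3 in young injured cords. Of 11 oligodendrocyte markers 2 were lower and 0 higher, with sums of 17214.1 to 24042 in aged injured and 26383 to 28250.7 in young injured cords. Of 7 markers of proliferating cells 5 were higher and 0 lower (median 1.08), with sums of 2757.7 to 5064 in aged injured and 1822.2 to 2255.7 in young injured cords. The sums of these 3 lists did not overlap between the ages in injured cord. Aged injured replicate 1 had the lowest astrocyte sum (12293.9, against 18641.2 and 20029.5 in the other aged injured cords). Its oligodendrocyte sum was also the lowest (17214.1, against 23156.9 and 24042). Its sum of proliferating cells was the highest (5064, against 2757.7 and 3872.7). In intact cord the oligodendrocyte sums were also lower in aged mice (23922.5 to 25588.3) than in young mice (28900.2 to 30784.8). The astrocyte sums there were 21450.2 to 22332.7 in aged and 22706.7 to 23335 in young mice. Those of proliferating cells were 986.9 to 998.9 in aged intact and 1033.5 to 1065.7 in young intact cords. Of the 14 macrophage and microglia markers 4 were higher and 0 lower in aged injured cord, and in aged intact cord 11 were higher and 0 lower. Between aged injured and young injured cord, 0 of 8 fibroblast and meninges markers passed the test in either direction. The same held for the 4 tested markers of endothelium and mural cells and the 6 of homeostatic microglia. With only the arrays compared in the fit, 0 of all 10511 genes were called between aged injured and young injured cord. The 11 tested neuron markers had a median of −1.04, with 0 past the threshold in limma and 1 at an unadjusted p under 0.05. The part of these cell types in the age differences of the respiratory chain genes was not tested.

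The calls of Ndufs3 and Ndufs7 were not stable. Without aged injured replicate 1 the log2 fold changes were −0.21 for Ndufs3 (adjusted p = 0.075) and −0.24 for Ndufs7 (adjusted p = 0.078), and the calls were lost under 12 and 13 of the 22 alternatives. Leaving out single arrays, controls included, gave between 0 and 8 genes called lower. The count was 0 without young intact replicate 1, 2 or 3, young injured replicate 2 or 3, aged intact replicate 2, or aged injured replicate 1 or 3, and 1 without young injured replicate 1 or aged intact replicate 1 or 3. It was 8 without aged injured replicate 2, where 1840 of all 10511 genes were called lower. The other core subunits did not pass the test: Ndufs1 had −0.24 (adjusted p = 0.15) and Ndufv1 −0.23 (adjusted p = 0.22), whereas Ndufv2 (−0.05) and Ndufs8 (−0.04) differed little.

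In intact cord no respiratory chain gene passed the test in limma between the ages with all groups in the fit, in either direction, against 0.266% of all genes lower and 0.542% higher. An unadjusted p under 0.05 was found for 6 of the 76 genes, or 7.89%, against 10.2% of all genes. These counts depended on the arrays in the fit. With only the intact arrays fitted, 16 of the 76 genes and 2180 of all 10511 genes had an unadjusted p under 0.05. That fit called 218 of all genes lower and 276 higher. The median log2 fold change of aged intact over young intact was −0.06, against 0.004 over all genes, and the arrays did not overlap with aged cords lower for 11 of 76 genes (11.2% of all genes). Ndufs1 was 1010.6, 999.8 and 1027.4 in aged intact, against 961.4, 931.8 and 912.1 in young intact cords, a log2 difference of 0.12 (adjusted p = 0.87). Cox4i1 (−0.07), Cycs (0.04), Sdha (0.11) and Atp5b (0.0004) likewise did not pass the test.

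The test of whether the injury difference itself changed with age found no respiratory chain gene past the threshold in limma, lower or higher, against 0.304% lower and 0.133% higher among all genes. The smallest adjusted p was 0.195, for Ndufs3, and 7 genes (9.21%) had an unadjusted p under 0.05, against 16.2% of all genes. The 6 core subunits of complex I had a median interaction of −0.24, with 5 of the 6 negative, and the largest was that of Ndufs1 (−0.36, adjusted p = 0.27). The larger falls of Ndufs1, Ndufv1 and Sdha in aged mice were therefore not shown to differ from those in young mice.

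**Figure D4:**
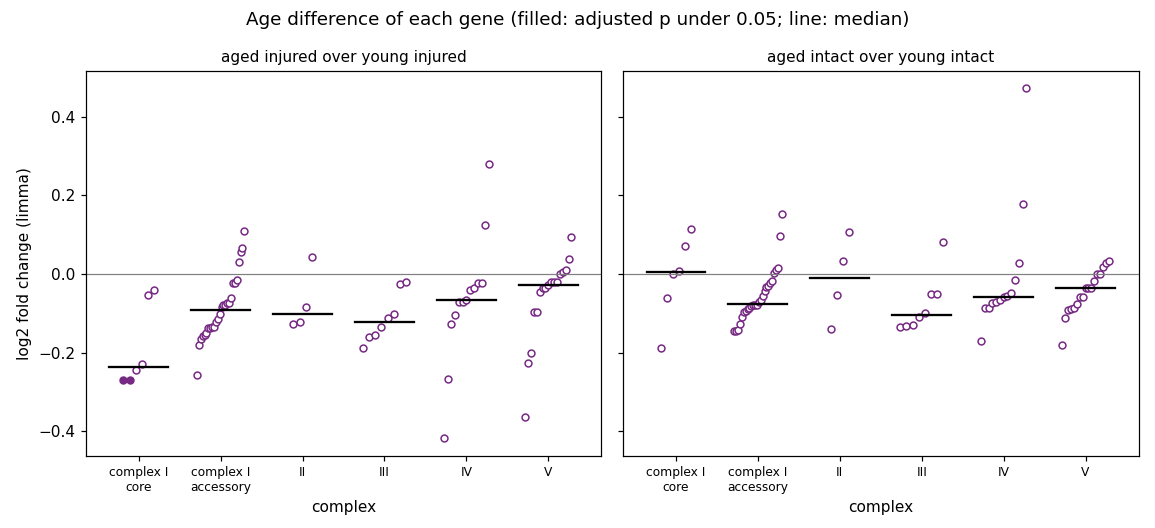
Log2 fold change of aged over young (y axis) for each gene by complex (x axis, complex I split into core and accessory subunits), in injured cord (left) and intact cord (right); filled points have an adjusted p under 0.05 and lines are medians. In injured cord the core subunits of complex I have a median of −0.24 and hold the 2 called genes, and in intact cord their median is 0.005 and no gene is called.

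The subunits that the symbol rule left out moved with the others. Cyc1, the cytochrome c1 of complex III, had means of 719 ± 38 in aged injured and 767 ± 48 in young injured cord, against 1260 ± 58 in aged intact and 1340 ± 46 in young intact cord (SD, n = 3). Its log2 fold change was −0.81 at both ages. Ndufab1, the acyl carrier subunit of complex I, had −0.82 in aged and −0.79 in young mice, and Atpif1, the inhibitor of ATP synthase, −0.29 and −0.40, all past the threshold. Of the 13 subunits encoded by mitochondrial DNA only ND5 had an annotated probe. Its mean signal was 3740 ± 529 in aged injured and 4869 ± 147 in young injured cord, against 6022 ± 436 in aged intact and 6024 ± 87 in young intact cord (SD, n = 3). ND5 fell, with log2 fold changes of −0.69 in aged (adjusted p = 4.2e-05) and −0.31 in young mice (adjusted p = 0.01). It was also lower in aged injured than in young injured cord, with −0.39 (adjusted p = 0.027). This call was lost with only the arrays compared in the fit, where 0 of all 10511 genes were called. ND5 did not pass the limma test of whether the injury difference changed with age, although its unadjusted p was under 0.05 there.

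Other genes that the chain depends on were read from lists that follow the pathway. Of 16 tested genes of the citric acid cycle and pyruvate dehydrogenase, which deliver NADH and succinate, 14 fell and 2 rose at both ages (median −0.68 in aged, −0.65 in young mice). Idh3a, a subunit of the NAD-dependent isocitrate dehydrogenase, had log2 fold changes of −1.10 in aged and −1.07 in young mice. The 2 that rose were Idh2, the NADP-dependent isocitrate dehydrogenase (0.77 in aged, 0.99 in young mice), and Suclg2, the GTP-specific subunit of succinyl-CoA ligase (0.52 and 0.68). Sucla2, its ATP-specific counterpart, fell (−0.93 in aged, −0.84 in young mice). Of 13 complex I assembly factors 9 fell at both ages, and Nubpl had log2 fold changes of 0.67 in aged (adjusted p = 0.00089) and 0.30 in young mice (adjusted p = 0.067). None of the 13 passed the limma test of whether the injury difference changed with age, and 1 had an unadjusted p under 0.05 there. Coenzyme Q synthesis had 9 of 11 genes lower and 0 higher in aged mice, and 7 lower and 1 higher in young mice. The 16 tested assembly factors of complex IV were 7 lower and 3 higher in aged mice and 8 lower and 2 higher in young mice. Those of complexes II, III and V had 8 of 11 lower at both ages. Among all genes tested 39.9% were lower and 35.6% higher in aged mice, and 34.1% and 33.9% in young mice. For the complex IV factors the share of lower genes in aged mice was close to that of all genes.

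Regulators of mitochondrial gene expression did not move as a block. Of 15 tested, 6 were lower and 3 higher in aged mice and 5 lower and 3 higher in young mice, a share close to that of all genes for the lower ones. Ppargc1a, the coactivator PGC-1 alpha, had means of 103 ± 43 in aged injured and 143 ± 11 in young injured cord, against 335 ± 6 in aged intact and 335 ± 14 in young intact cord (SD, n = 3). The log2 fold change was −1.81 in aged and −1.22 in young mice. For Esrrg, an orphan nuclear receptor that works with it, it was −3.04 in aged and −2.19 in young mice. Gabpa, an ETS factor of respiratory gene promoters, rose (0.98 in aged, 0.70 in young mice), and Tfam, which packages mitochondrial DNA and starts its transcription, fell (−0.39 and −0.34). Nrf1, the gene of the factor whose motif was searched above, and Gabpb1 were under 50 in all groups and were not tested.

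**Figure D5:**
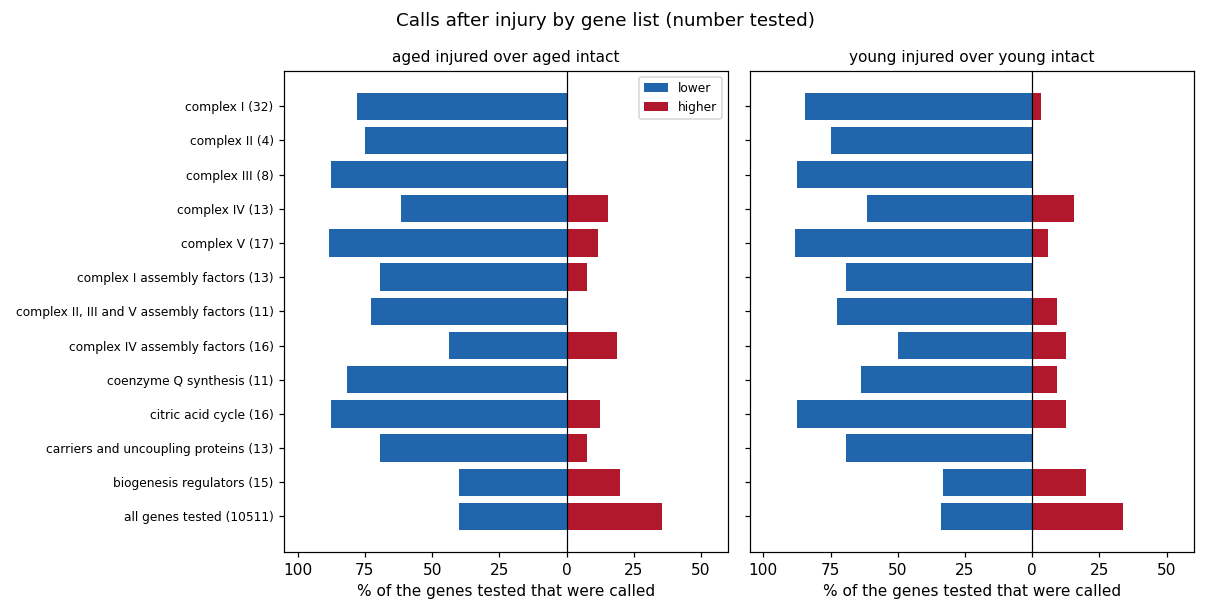
Share of the tested genes of each list (number tested in brackets on the y axis) called lower (bars to the left of 0) or higher (to the right) in aged injured over aged intact cord (left panel) and young injured over young intact cord (right panel), in percent. The 5 complexes and the citric acid cycle have between 61.5% and 88.2% of their genes called lower, against 39.9% and 34.1% of all genes tested.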

How the data were processed

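MAS5 signal intensities were computed by the authors from scans of Affymetrix mouse arrays hybridised with biotin-labelled total RNA of Th9 spinal cord segments, and the deposited values are linear with a trimmed mean of 100 on each array. Intensities were taken to log2 without a pseudocount. Of 45101 probes, 34958 had 1 gene in the platform annotation, and those with several genes (932) or none (9211) were left out. Each gene used its probe of highest mean over the 12 arrays and was tested where a group mean exceeded 50 (10511 genes). Groups come from the titles (3 mice each). Limma 3.58.1 in R 4.3.3 (lmFit, eBayes with trend) was fitted to the 4 group means, with Benjamini-Hochberg adjustment over all genes tested and a threshold of 0.05, and was checked on simulated data. The members, lists and motifs were chosen with earlier results of these data known. Named genes are fixed core subunits and tissue isoforms, called genes of largest change (at most 5 per direction, and 1 per complex) and called genes against their complex; other genes are named as examples or exceptions, chosen after their values were seen. Complex I arms, its core and the c subunit trio were defined after the values were seen. Cox7b, Ndufs6 and Ndufa11 had no probe annotated to 1 gene and were not analysed here. Where a group mean was under 50, folds are given as bounds against 50, from the geometric mean of the brighter group. Promoter windows are RefSeq, GRCm38.p6. Alternatives were other normalizations, filters, priors, a replicate block, means over probes and leaving out each array. The number of arrays limits the precision.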

Additional observations from a re-analysis of the deposited data

How the results depend on the processing

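The falls after SCI kept their direction under every alternative run: none of the 59 genes called lower in aged and 61 in young mice changed sign, and 58 in each age kept their call throughout. Leaving out each array in turn gave 58 to 60 genes lower and 4 to 6 higher in aged mice (medians −0.42 to −0.36), and 59 to 63 lower and 4 to 5 higher in young mice (medians −0.44 to −0.39). With a minimum mean signal of 100, 3 genes were called higher at each age. The median of the respiratory chain genes after SCI was −0.57 in aged and −0.48 in young mice after quantile normalization, −0.48 in young mice with each array centred on its median, and −0.47 in aged mice with the mean of all probes of a gene. Under quantile normalization the median of the interaction was −0.087. The causes of these shifts were not tested. For aged injured over young injured cord, the genes called lower numbered 0 with only the arrays compared in the fit and 0 with the cutoffs of the study's methods (fold above 2), 1 without the trend, 1 with centred arrays, 1 with no filter on signal and 0 to 8 when single arrays were left out. The gene called with no filter on signal was neither Ndufs3 nor Ndufs7. With the replicate number as a replicate block 4 genes were called lower in that comparison, and in young mice after SCI 4 genes were called higher. Deviations of samples sharing a number had correlations of −0.11 to 0.67, over 0.1 in 2 of 18 pairs. Both were between young injured and aged injured cords, with 0.60 for replicate 1 and 0.67 for replicate 2, against 0.01 for replicate 3. Young and aged injured cords with unlike numbers had −0.63 to 0.32. The labels do not say what a number stands for, and the numbers were not taken as pairs in the main fit. Low signals limit Cox6a2, Cox6b2, Cox8c and Ndufb1, whose group means lie between 19.9 and 68.8.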
